A study of Rattus norvegicus with 24 samples.

Results

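CpGs covered by far more reads than the rest were collected from the reduced representation bisulfite sequencing (RRBS) of rat kidney. A CpG was kept if it lay on an autosome, had a coverage of at least 10 reads in all 12 rats and had a mean coverage of at least 60 reads over the rats. The CpGs were thus chosen by their coverage in these libraries. This rule chose 2413 of the 396151 autosomal CpGs that had 10 reads in all rats, or 0.609%, counting the DNA strands separately. They are called high-coverage CpGs here, and the other tested autosomal CpGs serve as the comparison. On the X chromosome, 146 CpGs had such a mean and were not included.

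Kidney cross-sections came from female rats of 2 strains, Sprague Dawley (CD), an outbred stock, and Brown Norway (BN), an inbred strain, with 3 rats in each of the groups CD-NP, CD-P18, BN-NP and BN-P18. NP rats were non-pregnant and P18 rats were at day 18 of pregnancy. The labels name no transgene, deletion or drug, and they give an age of 2 months in 1 field and of 6 to 8 weeks in another. Each library came from the bulk DNA of a section holding cortex and medulla, so a change in methylation and a change in the mixture of cell types cannot be told apart.

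DNA methylation at CpGs is a mark that is copied after replication by a maintenance methyltransferase. It is sparse over the CpG islands of active promoters and dense over most gene bodies and transposable elements. RRBS cuts DNA with MspI at CCGG and reads the fragment ends after bisulfite has turned unmethylated C into T, so the methylation level of a CpG is the percent of its reads that still show C. A mammalian genome also holds families of near-identical sequence, such as ribosomal DNA, satellites and segmental duplications, and reads from copies missing in an assembly can align to the copies it holds.

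The chosen CpGs covered a wide range of depth. Their median mean coverage was 102 reads against 24.5 reads over all tested CpGs, and 1232 of them reached a mean of 100 reads, 636 reached 200, 263 reached 500 and 89 reached 1000. They took 5.28% of the reads on tested autosomal CpGs. Coverage summed over all listed CpGs was between 21669162 and 44738436 reads per rat. Just inside the threshold lay the plus strand of chromosome 5 at 141015436 and of chromosome 9 at 119932102, both with a mean of 60 reads, and the plus strand of chromosome 1 at 147021365 with 60.1. Just outside lay the plus strand of chromosome 3 at 26257024, the minus strand of chromosome 15 at 35323367 and the plus strand of chromosome 18 at 47895294, each with 59.9 reads. These values describe the choice and are not a result.

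The high-coverage CpGs lay in few places. Joined where neighbours were at most 1000 bases apart, they formed 529 loci, of which 144 held a single CpG, 263 held 2 to 4 and 122 held at least 5. The 122 larger loci contained 1564 of the CpGs (64.8%), the 10 largest contained 538 (22.3%), and 60 loci were enough to hold 50% of all. All tested autosomal CpGs joined in the same way formed 83794 loci with 4.73 CpGs each on average, against 4.56 for the high-coverage CpGs. The high-coverage CpGs are only 0.609% of the tested autosomal CpGs, so these 2 averages do not measure clustering alike. With a joining distance of 200 bases there were 582 loci, and with 10000 bases 474.

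Some chromosomes held many more of them than others. Chromosome 7 had 381, chromosome 1 had 362, chromosome 9 had 307 and chromosome 2 had 294. As a share of its tested CpGs chromosome 9 stood highest with 1.87% and chromosome 10 lowest with 0.0582%. Single megabases of the Rnor6.0 assembly carried much of this. Between 11000000 and 11999999 of chromosome 1, 141 of 173 tested CpGs had high coverage, and between 8000000 and 8999999 of chromosome 9, 128 of 191.

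The largest locus, at chr1:11910023-11912274, held 78 high-coverage CpGs at a median coverage of 713.8 reads. It was followed by chr7:99521464-99523538 with 72 CpGs, chr7:1624157-1626656 with 62, chr2:193572222-193573298 with 61 and chr19:56337682-56339151 with 60. The next 5 were chr9:8376576-8377282 with 46, chr7:22452569-22454564 with 43, chr4:77447900-77448418 and chr1:11904929-11907652 with 39 each, and chr2:548691-551194 with 38. Positions are those of Rnor6.0, an assembly of the BN strain. No annotation of that assembly was used here, so the genes, exons or repeats at these positions are not given.

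These 10 loci had very different methylation. The median level over the CpGs of a locus was 0.44% at chr4:77447900-77448418, 3.07% at chr9:8376576-8377282 and 6.48% at chr2:548691-551194, in the range of CpG islands. The median level was 93.6% at chr2:193572222-193573298. Between these stood chr1:11904929-11907652 with 27.2%, chr1:11910023-11912274 with 30.2% and chr19:56337682-56339151 with 47.1%.

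The deepest CpGs were found in 4 loci. The minus strand of chromosome 20 at 46083827 had a mean of 4051 reads, from 2619 to 4917 in single rats. Its level was nearly the same in every rat, between 93.5 and 95.0%. The minus strand of chromosome 4 at 146547434 followed with 3960 reads and a level of 86.4 ± 2.10% (SD, n = 3) in CD-NP and 85.3 ± 1.48% in CD-P18. In BN it was 88.9 ± 0.196% at NP and 88.1 ± 0.339% at P18. In the same locus, the minus strand at 146547379 had 3889 reads and a pooled level of 77.8%, and the minus strand at 146547366 had 3109 reads and 77.8%. The second CpG of the chromosome 20 locus, at 46083802, had 3383 reads and 97.6%. The others among the 10 deepest were at 148644380 and 148644323 of chromosome 1 (2805 and 2709 reads) and at 56337781, 56337734 and 56338923 of chromosome 19 (2571, 2525 and 2184 reads), all on the minus strand. All 10 deepest CpGs were on the minus strand, while of all high-coverage CpGs 1489 were on the plus and 924 on the minus strand.

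Levels of the high-coverage CpGs were set against those of the other tested autosomal CpGs in each rat, since the rule used coverage and not methylation. The mean level was 50.5 ± 0.927% (SD, n = 12 rats) over high-coverage CpGs and 44.6 ± 0.197% over the others, and it was higher in 12 of 12 rats. All rats share the same CpGs in the same loci, so these shares are given as a description with no test. Fewer high-coverage CpGs were nearly unmethylated, with 28.3 ± 2.53% of them under a level of 10%, against 40.9 ± 0.192% of the others (lower in 12 of 12 rats). Levels from 20 to 80% were found at 26.0 ± 2.32% of high-coverage CpGs and at 23.2 ± 0.296% of the others (higher in 10 of 12 rats).

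Deeper coverage narrows the counting error of a level, so this last share was also computed for 10 reads drawn from every CpG. In 10 reads, an expected 35.4 ± 1.86% of high-coverage CpGs had 2 to 8 methylated reads, against 28.6 ± 0.328% of the others (higher in 12 of 12 rats). By group, the mean level over high-coverage CpGs was 51.1 ± 1.2% in CD-NP and 50.1 ± 1.02% in CD-P18 (n = 3 each). BN-NP rats had 50.4 ± 0.709% and BN-P18 rats 50.4 ± 1.0%, and the 4 ranges overlapped.

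Intermediate levels were most common at the deepest CpGs. From 20 to 80% stood 22.7% of the 1181 CpGs with a mean coverage of 60 to 100 reads, 22.5% of the 596 with 100 to 200, 30.3% of the 373 with 200 to 500 and 37.9% of the 174 with 500 to 1000. At 1000 reads or more it was 68.5% of 89 CpGs. These 89 lay in 12 loci, so this last share describes few places. The levels were pooled over the 12 rats of both strains. Some of the 89 were in chr1:11910023-11912274, where the mean level was 50.2 to 77.6% in CD rats and 3.93 to 29.7% in BN rats.

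**Figure D1:**
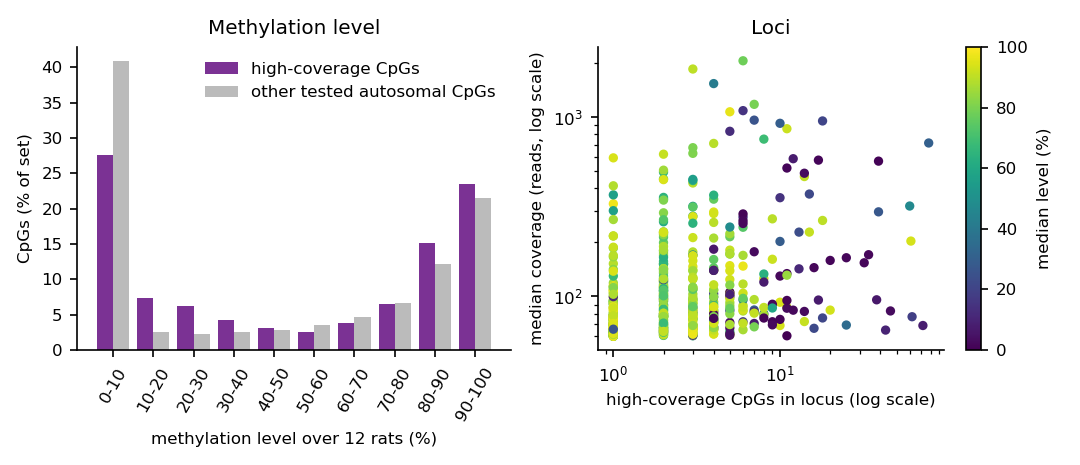
Left, the percent of CpGs (bars) in each class of methylation level pooled over 12 rats, for the 2413 high-coverage CpGs and the other tested autosomal CpGs. Right, each of the 529 loci as a point, with its number of high-coverage CpGs against the median coverage in reads (both axes logarithmic), coloured by median level. The lowest class holds 27.5% of the high-coverage and 40.8% of the other CpGs, and the locus with 78 CpGs has a median coverage of 713.8 reads.

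The spread between rats was above counting error at the deepest CpGs. Among the 368 CpGs with a mean coverage of at least 200 reads and a pooled level of 10 to 90%, the median SD between rats of a group was 5.02 points in CD-NP and 4.82 in CD-P18, and 3.22 and 4.31 points in the BN groups of the same stages. The median counting error, the SD expected from counting reads, was 2.28, 1.91, 1.69 and 1.90 points there. Over all 1185 high-coverage CpGs of that level the median SD was 5.40 points in CD-NP, against a counting error of 4.53. It was 3.92 against 3.53 in CD-P18, 3.46 against 3.48 in BN-NP and 4.15 against 3.76 in BN-P18. Over the other tested CpGs of that level the median SD, 6.57 to 8.04 points by group, was below the counting error of 7.98 to 9.50 points. The median of SDs from 3 rats tends to lie below the expected SD. A median SD near the counting error can thus hold spread beyond counting, which was not tested.

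Repeated copies were looked for by the spacing of CpGs, as no sequence of Rnor6.0 was used here. A run of 8 neighbouring tested CpGs within 300 bases, with the strands merged to the position of the plus-strand C, was compared with all other runs in both directions. Of the 402 runs made only of high-coverage CpGs, 25 (6.22%) had the same 7 distances somewhere else among the tested CpGs. Of the 60496 runs without any high-coverage CpG, 71 (0.117%) did. Overlapping runs are not independent, so no test was made, and 93.8% of the high-coverage runs had no such match.

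The matches joined a small set of places. On chromosome 20, 11 CpGs from 4698318 and 11 from 4920945 lined up in the same direction. Their coverage was 95 and 134 reads and their median level 1.15 and 0.914%, both unmethylated. On chromosome 9, the CpGs from 1431447 lined up in the opposite direction with those from 8376814 (9 CpGs) and, from 1431460, with those from 12388270 (8 CpGs). The CpGs from 8421395 and from 12094175 of chromosome 9 lined up over 8 CpGs at 1.55 and 1.18%. Across chromosomes, 9 CpGs from 66225238 of chromosome 16 lined up with those from 8376709 of chromosome 9, and 10 CpGs from 11905852 of chromosome 1 with those from 30631529 of chromosome 6. The longest alignment, of 17 CpGs, joined those from 1625662 of chromosome 7 (76.8 reads, median level 16.8%) in the opposite direction with those from 145875310 of the X chromosome (27.8 reads, 4.2%). Of the 5 autosomal loci of these cross-chromosome matches, 4 differed between the strains by an exact permutation test within stage, and chr7:1624157-1626656 did not (adjusted p = 0.0678). Of all 122 loci so tested, 37 differed at an adjusted p under 0.05. These 5 loci were chosen after their values were seen, so a link between spacing and strain was not tested. At chr16:66225129-66225290 the mean level was 1.48% in CD and 2.78% in BN (adjusted p = 0.0381), and the others are given with the strain comparison.

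The strands gave a second check of the levels. At 147 CpGs both strands had high coverage, and their levels differed by a median of 0.766 points. More than 20 points separated them at 3 of the 147 (2.04%), against 12 of 23831 CpGs (0.0504%) tested on both strands where neither strand had high coverage. At chromosome 15 the plus strand at 5791394 had a pooled level of 93.0% and the minus strand at 5791395 had 47.8%, with similar values in all 4 groups. At chromosome 1 the plus strand at 148644322 had 50.3% and the minus strand at 148644323 had 26.7%. The third pair was on chromosome 18 and was discordant mainly in CD, as given below.

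Mean coverage at many loci differed between the strains, which is given as a description because coverage chose the CpGs. Scaled to equal library totals (CPM), the mean of the 6 BN rats divided by that of the 6 CD rats had a median of 1.18 over the 529 loci, against 0.984 over tested autosomal CpGs, and ran from 0.0456 to 5.25. The BN mean was more than 1.5 times the CD mean at 144 loci and the reverse held at 86. At 47 loci every BN rat had more reads per library total than every CD rat, and at 36 every CD rat had more. These counts were not made over all tested CpGs, so whether such gaps are particular to the high-coverage loci was not tested.

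The widest gap was at chr1:11969033-11969091, with 6 high-coverage CpGs. The CD rats had 6.76 to 22.4 CPM and the BN rats 0.32 to 0.973, so the ranges were far apart. The 2 chromosome 20 places with matching CpG spacing behaved alike, with a BN to CD ratio of 0.109 at chr20:4920946-4921004 and 0.122 at chr20:4698319-4698377. In the other direction, chr19:28660338-28660460 with 11 CpGs had 5.76 to 7.44 CPM in BN rats and 0.992 to 2.02 in CD rats. Single rats could also stand apart: at chr1:148644222-148644380, CD-NP rat 1 had 2.01 CPM and the other 11 rats 18.6 to 37.7. Its level at the minus strand of 148644323 was 4.80%, while the other CD-NP rats had 19.5 and 37.1%.

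**Figure D2:**
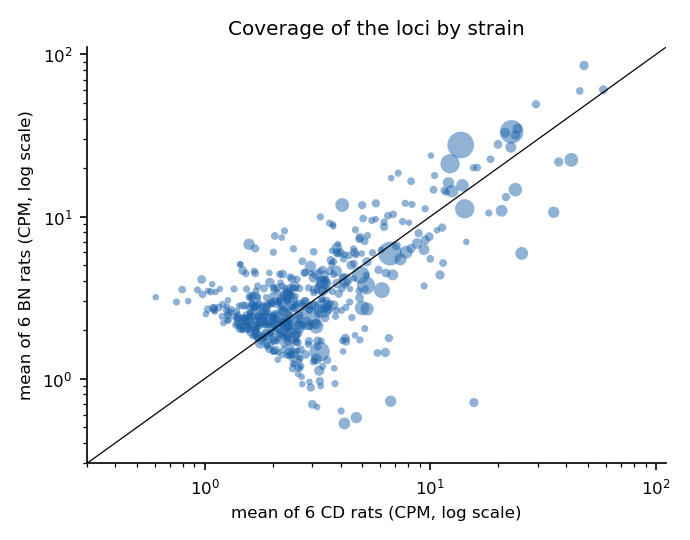
Coverage of the 529 loci, in CPM, as the mean of 6 CD rats (horizontal) against the mean of 6 BN rats (vertical), both axes logarithmic. Point size grows with the number of high-coverage CpGs, and the line marks equal coverage. Loci fall on both sides, with BN to CD ratios from 0.0456 to 5.25.

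The strains were compared CpG by CpG among non-pregnant rats. A differentially methylated CpG (DMC) had a Benjamini-Hochberg adjusted p under 0.05 over all 404069 tested CpGs, from a logistic model whose dispersion was moderated with limma, and a difference of more than 10 points when the reads of each group were pooled. Between BN-NP and CD-NP, 194 of the 2413 high-coverage CpGs (8.04%) were DMCs, 77 with higher and 117 with lower methylation in BN, in 45 loci. Among all tested CpGs 0.592% were DMCs, 0.467% higher and 0.125% lower in BN. Differences over 50 points were found at 43 high-coverage CpGs, of which 41 were lower in BN. Greater depth lets a smaller difference pass the test, and its part in these shares was not tested.

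Between BN-P18 and CD-P18, 189 high-coverage CpGs (7.83%) were DMCs, 81 higher and 108 lower in BN, again in 45 loci. The share among all tested CpGs was 0.555%, with 0.456% higher and 0.0995% lower. The rats of the 2 stages are different animals, and 146 CpGs were DMCs at both stages, which is 75.3% of the NP list and 77.2% of the P18 list. All 146 differed in the same direction, 44 higher and 102 lower in BN. They lay in 29 loci, and 78 of them, 77 lower in BN, were in chr1:11910023-11912274 alone. CpGs of a locus share reads, so they do not count as separate cases.

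The counts rested on how the spread between rats was modelled. With the prior for the dispersion taken from the high-coverage CpGs alone, 114 DMCs were found at NP (15 higher, 99 lower) and 16 at P18 (15 higher, 1 lower), and with limma on the percents of each rat 2 and 8. A count that does not use the model was therefore added: at 188 high-coverage CpGs (7.79%) in 44 loci all 6 BN rats lay on 1 side of all 6 CD rats and the pooled levels differed by over 10 points, 75 higher and 113 lower in BN. Among all tested CpGs this share was 0.636%, with 0.425% higher and 0.211% lower in BN. Of the 188, 78 lay in chr1:11910023-11912274 (77 lower in BN) and 12 in chr1:11904929-11907652 (all lower). Another 37 lay in chr19:56337682-56339151 (all higher), so few loci carried this count. Greater depth narrows the counting error and makes a gap between the strains easier, and its part in this share was not tested.

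**Figure D3:**
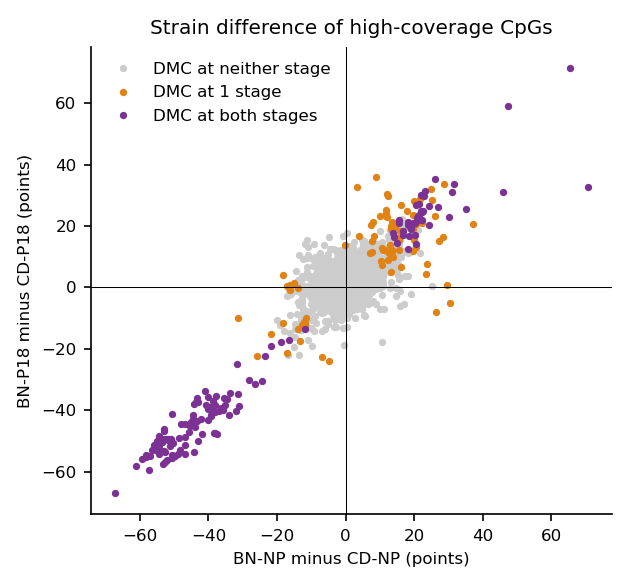
Difference in pooled methylation level between the strains, in percentage points, at NP (horizontal) and at P18 (vertical) for each of the 2413 high-coverage CpGs. Colour shows whether a CpG was a DMC at neither, at 1 or at both stages, and the 146 DMCs of both stages lie in the quadrants where the signs match.

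Most strain DMCs came from few loci. At NP, 119 of the 194 (61.3%) lay in chr1:11910023-11912274, chr19:56337682-56339151 and chr1:11904929-11907652, and at P18 these held 114 of the 189 (60.3%). Outside these 3 loci, BN was higher at 49 and lower at 26 DMCs at NP, and higher at 58 and lower at 17 at P18. A single DMC among several high-coverage CpGs was found in 24 loci at NP and in 27 at P18.

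At the largest locus, chr1:11910023-11912274, BN rats were far less methylated. All 78 CpGs were DMCs at both stages, 77 of them lower in BN. With the prior from the high-coverage CpGs alone, 76 of them were DMCs at NP and 0 at P18. The mean level over the locus was 68.7, 59.3 and 50.2% in the CD-NP rats and 51.1, 77.6 and 56.4% in the CD-P18 rats. It was 15.4, 11.8 and 18.2% in the BN-NP rats and 14.7, 3.93 and 29.7% in the BN-P18 rats. The lowest CD rat was thus above the highest BN rat, and the difference of -44.9 points between strain means was past the threshold by an exact permutation test over rats within stage (p = 0.005, the smallest it can give, adjusted p = 0.0305 over 122 loci). The locus had 2.03 times the CPM in BN that it had in CD.

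Within the locus, the plus strand at 11910163 had the smallest p at NP, with 90.6, 83.0 and 70.1% in CD-NP and 23.2, 20.5 and 25.9% in BN-NP (difference -58.2 points, adjusted p = 1.30e-17 by the moderated logistic model, 0.116 by limma on percents). Only 2 bases away, the plus strand at 11910165 was the exception of the locus, with 3.06 ± 1.14% (SD, n = 3) in CD-NP and 15.8 ± 3.76% in BN-NP, and it was called in the opposite direction. At P18 the CpG with the smallest p was the minus strand at 11910116, with 63.3 ± 13.8% in CD-P18 and 12.1 ± 10.3% in BN-P18 (adjusted p = 2.04e-09). Its plus strand at 11910115 gave 60.3 ± 14.3% and 14.3 ± 12.7%, so both strands showed the difference. With the prior from the high-coverage CpGs alone, the adjusted p at 11910116 was 0.182, and by limma on percents it was 0.417.

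A small locus on chromosome 14 resembled the large locus of chromosome 1 in its levels. At chr14:46565360-46565429 all 4 CpGs were lower in BN at both stages, with 80.3, 73.8 and 63.9% in the CD-NP rats and 62.9, 86.5 and 69.7% in the CD-P18 rats. The BN-NP rats had 18.8, 13.3 and 21.6% and the BN-P18 rats 18.6, 4.13 and 32.8%. The 6 BN rats stood in the same order as at chr1:11910023-11912274, and their levels were 0.201 to 3.89 points higher here. Of the 6 CD rats, 4 held the same rank, with levels 8.97 to 14.5 points higher. The order of the BN rats was not particular to these 2 loci. It was the same at chr1:11971703-11971846, which did not differ between the strains (adjusted p = 0.246 by the exact permutation test). There the BN-NP rats had 17.6, 8.17 and 23.5% and the BN-P18 rats 11.6, 7.06 and 28.4%. In the chromosome 14 locus, the minus strand at 46565385 had a coverage of 1521 reads and a level of 74.1 ± 8.48% in CD-NP and 16.4 ± 4.88% in BN-NP (adjusted p = 1.10e-16 by the moderated logistic model, 0.112 by limma on percents), and 7 bases away 46565392 had 59.4 ± 5.01% and 10.2 ± 3.83%.

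The neighbouring locus chr1:11904929-11907652 was also lower in BN. Its 39 CpGs had a mean level of 34.2 ± 4.0% in CD-NP and 33.2 ± 11.3% in CD-P18, and BN rats had 15.7 ± 5.23% at NP and 15.1 ± 10.7% at P18, a difference of -18.3 points (exact permutation p = 0.01, adjusted p = 0.0381). Here 14 CpGs were DMCs at each stage. The 6 BN rats again stood in the order of chr1:11910023-11912274, while 3 of the 6 CD rats held the same rank. The highest BN rat, at 26.9%, was above the lowest CD rat, at 25.4%, so the ranges of the strains overlapped.

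The locus chr19:56337682-56339151 went the other way. Its mean level was 41.9, 48.9 and 32.9% in CD-NP and 40.1, 42.3 and 39.6% in CD-P18. The BN-NP rats had 56.3, 58.3 and 57.6% and the BN-P18 rats 57.5, 56.8 and 53.3%, so every BN rat was above every CD rat (difference 15.7 points, exact permutation p = 0.005, adjusted p = 0.0305). All 60 CpGs were higher in BN by strain means, by 2.17 to 28.3 points, and 27 were DMCs at NP and 22 at P18. Levels varied along the locus in both strains, with means of single CpGs from 3.37 to 92.9% in CD-P18 and from 17.8 to 95.8% in BN-P18. At the minus strand of 56337781 the level was 36.4 ± 10.2% in CD-NP and 59.4 ± 0.617% in BN-NP, and at 56338923 it was 9.94 ± 6.43% and 31.0 ± 4.08%. The SD between rats was larger in CD-NP than in BN-NP at 58 of the 60 CpGs, with medians of 8.45 and 2.82 points. At P18 the order of the medians was reversed, with 2.48 points in CD-P18 and 3.31 in BN-P18.

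**Figure D4:**
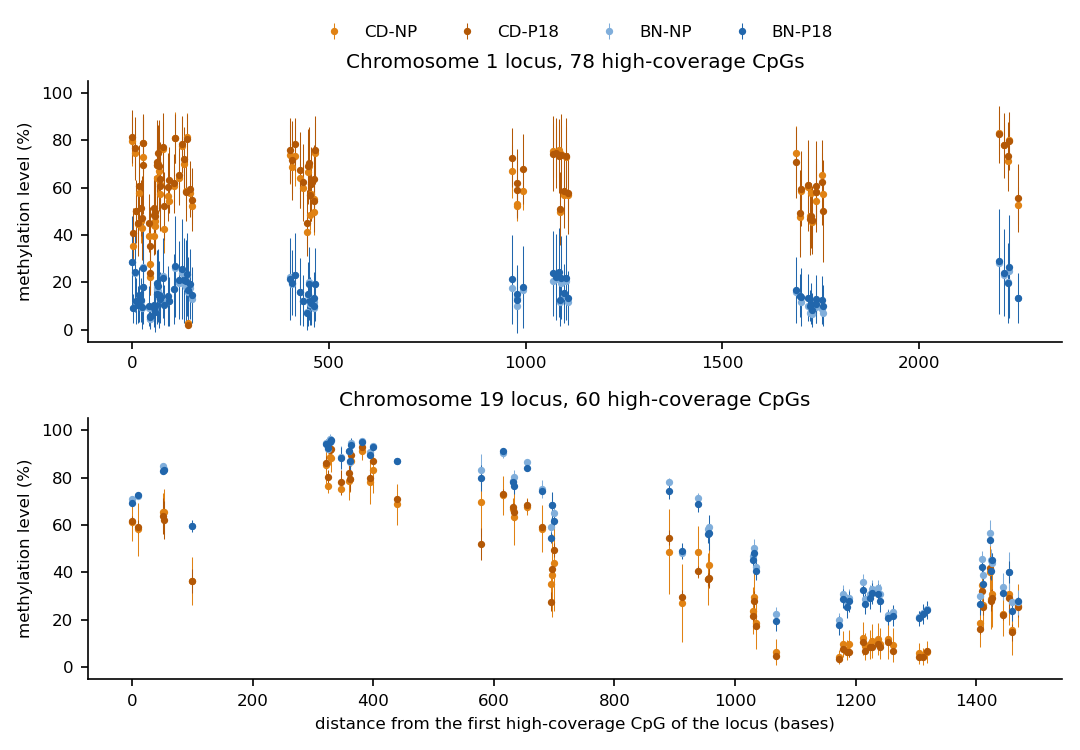
Methylation level (mean and SD of 3 rats per group, in percent) of each high-coverage CpG against its distance in bases from the first one, for the chromosome 1 locus with 78 CpGs (top) and the chromosome 19 locus with 60 (bottom). BN lies below CD at 77 of the 78 CpGs of the first locus and above CD at all 60 of the second.

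Loci of at least 5 high-coverage CpGs were tested as units, since their CpGs share reads. Of 122 loci, 37 differed between the strains at an adjusted p under 0.05, 26 higher and 11 lower in BN, with 20 at the smallest p that the test can give. The count was 13 without BN-NP rat 1 and 16 without BN-P18 rat 2. Without any other single rat it was 25 to 37, so it rested in part on BN-NP rat 1 and BN-P18 rat 2. The differences were mostly small, with 17 of the 37 over 5 points and 7 over 10 points. Besides the 3 loci above, those over 10 points were chr1:47995928-47996679, chr6:30631494-30631564, chr18:47895239-47895308 and chr6:105269226-105269293.

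At chr1:47995928-47996679 the 8 CpGs had 17.7 ± 9.21% in CD-NP and 24.0 ± 19.8% in CD-P18, and the BN rats 43.3 ± 7.87% at NP and 54.0 ± 3.56% at P18 (27.8 points higher in BN, adjusted p = 0.0305 by the exact permutation test). Its strains overlapped, as CD-P18 rat 1 had 46.8% and the other CD rats 10.5 to 28.2%, while BN rats ran from 37.8 to 58.1%. At chr6:30631494-30631564, whose CpG spacing matched the chromosome 1 locus of 39 CpGs, BN was 14.0 points higher (adjusted p = 0.0381). The CD rats there had 2.47 to 8.03% and the BN rats 7.19 to 33.2%. At chr6:105269226-105269293 the level was 16.5 ± 9.49% in CD-NP and 29.6 ± 0.631% in BN-NP (11.9 points over both stages, adjusted p = 0.0305).

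Among the 10 largest loci, several passed with small differences between the strains. At chr2:193572222-193573298 the mean level was 90.6% in CD and 93.5% in BN, at chr9:8376576-8377282 it was 3.13 and 5.58%, and at chr2:548691-551194 16.3 and 21.3%, each with every BN rat above every CD rat (adjusted p = 0.0305). At chr4:77447900-77448418 it was 0.339 and 0.626% (adjusted p = 0.0381). The loci chr7:1624157-1626656 (20.1% in CD, 27.1% in BN, adjusted p = 0.0678), chr7:99521464-99523538 (10.4 and 12%, adjusted p = 0.610) and chr7:22452569-22454564 (10.5 and 10.2%, adjusted p = 0.950) did not pass. In the last, CD rats alone ran from 3.62 to 24.3%.

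**Figure D5:**
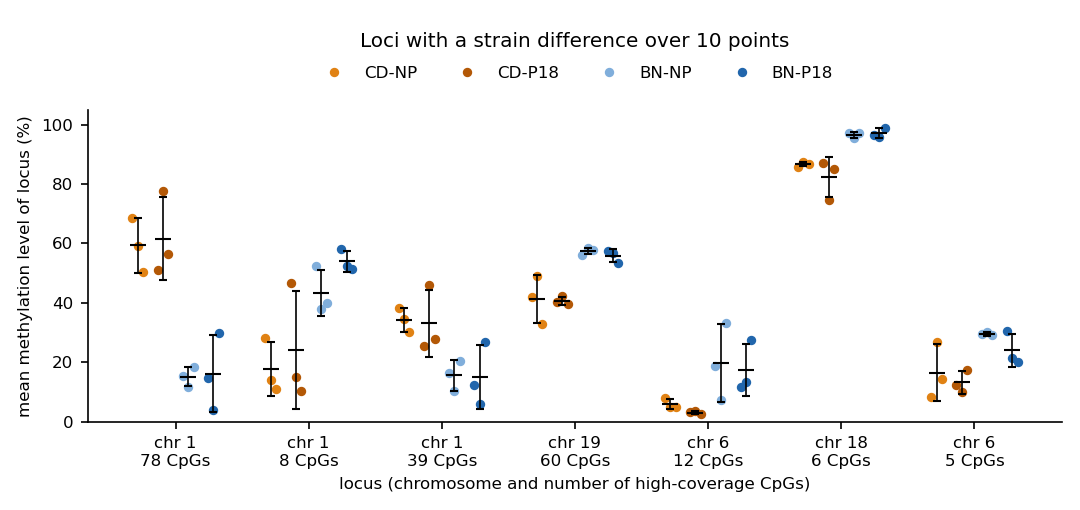
Mean methylation level of the 7 loci with a strain difference over 10 points and an adjusted p under 0.05, in percent, for each rat (points), with the mean and SD of the 3 rats of a group (black). Loci are named by chromosome and number of high-coverage CpGs, and BN is lower at the chromosome 1 loci of 78 and 39 CpGs and higher at the other 5.

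Some other strain DMCs lay beside CpGs that were not DMCs. The one with the smallest p was the minus strand of chromosome 12 at 1510492, in a locus of 11 CpGs. It had 97.9, 97.5 and 97.1% in CD-NP and 96.7, 97.2 and 95.6% in CD-P18. The BN-NP rats had 27.7, 29.2 and 32.1% and the BN-P18 rats 30.3, 28.4 and 30%. The rats of a group lay close together, with SDs of 0.370 to 2.24 points, and the strains were far apart. The differences were -67.3 points at NP (adjusted p = 2.93e-26) and -66.9 at P18 (adjusted p = 2.57e-14), both from the moderated logistic model, and limma on percents gave 0.0061 and 0.00462. The CpG 2 bases away, at 1510494, had 94.6 ± 0.770% in CD-NP and 94.2 ± 0.454% in BN-NP, and none of the 10 other CpGs of the locus was a DMC at either stage. CD rats had 3.31 times the coverage of BN rats at this locus.

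On chromosome 18 the minus strand at 47895240 was higher in BN, with 27.6, 35.6 and 37.2% in CD-NP, 33.7, 4 and 21.3% in CD-P18 and 84.2 to 100% in the BN rats. The differences were 65.5 points at NP (adjusted p = 1.39e-16) and 71.4 at P18 (adjusted p = 2.42e-10). By limma on percents the adjusted p was 0.0751 at NP and 0.117 at P18, so neither call was kept. The plus strand of the same CpG, at 47895239, had 95.0 to 100% in CD rats and 90.9 to 97.7% in BN rats. The strands thus differed widely in CD and little in BN. None of the other 5 CpGs of the locus was a DMC, while the locus as a whole differed by 12.3 points (adjusted p = 0.0305 by the exact permutation test).

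The minus strand of chromosome 2 at 193573081 gave the same kind of pattern with a smaller difference. It had 64.7, 58.0 and 62.3% in CD-P18 and 95.3, 95.2 and 96.1% in BN-P18 (33.8 points, adjusted p = 1.22e-09), while its plus strand at 193573080 had 95.0 ± 1.38% and 95.6 ± 1.40%. It was the only DMC among the 61 CpGs of its locus. At the plus strand of chromosome 1 at 150713584, CD-P18 rats had 59.7, 61.0 and 61.8% and BN-P18 rats 97.8, 97.7 and 93.2% (35.4 points, adjusted p = 2.83e-09), and 9 bases away 150713575 had 94.6 ± 1.68% and 95.9 ± 1.27%. In this locus of 8 CpGs, 1 other was also a DMC at P18.

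The plus strand of chromosome 9 at 1433801 differed most at NP, by 70.8 points (adjusted p = 2.62e-17 by the moderated logistic model, 0.0848 by limma on percents). The CD-NP rats had 39.1, 25 and 14.3% and the BN-NP rats 98.1, 96.7 and 97.0%. The CD-P18 rats were scattered, with 22.2, 88.6 and 45.2%. Coverage was 20 to 23 reads in CD-NP rats and 67 to 108 in BN rats. The CpG at 1433796, 5 bases away, had 98.4 ± 2.75% in CD-NP and 96.3 ± 3.79% in BN-NP. Of the 8 CpGs named for a strain difference, the nearest tested CpG was not a DMC at 5. A C-to-T difference between a rat's own DNA and the assembly also counts as an unmethylated C in RRBS, and its part in these values was not tested.

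The share of DMCs whose neighbour differed alike was set by the 3 loci with most of them. Of the 189 NP DMCs with a tested CpG within 50 bases, the nearest was a DMC in the same direction at 130 (68.8%), and at P18 at 126 of 185 (68.1%). Outside these 3 loci it was 23 of 70 (32.9%) at NP and 20 of 71 (28.2%) at P18. Over the DMCs among all tested CpGs it was 27.1% at NP and 26.8% at P18.

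Pregnancy was then compared within each strain. In CD rats 1 high-coverage CpG was a DMC between P18 and NP (0.0414%), against 0.0483% of all tested CpGs (0.0245% higher and 0.0238% lower at P18). It was the minus strand of chromosome 15 at 31677208, with 42.0, 25.3 and 20.5% in CD-NP and 69.1, 50 and 62.3% in CD-P18 (34.1 points, adjusted p = 0.00265 by the moderated logistic model). The 2 groups did not overlap, and BN rats had 41.7 to 63.4% (57.2 ± 8.37% at NP and 55.3 ± 11.8% at P18). The nearest CpG, 6 bases away at 31677202, had 79.96 ± 5.12% and 73.2 ± 17.4% in CD. Without CD-NP rat 3 its adjusted p was 0.0976, without CD-P18 rat 1 it was 0.167, and the call was also lost with limma on percents (adjusted p = 0.879).

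In BN rats a single CpG of all 404069 was a DMC (0.000247%), and it had high coverage. At the minus strand of chromosome 1 at 16400198 the BN-NP rats had 52.9, 48.7 and 69.0% and the BN-P18 rats 27.3, 22.7 and 23.4% (-34.2 points, adjusted p = 8.36e-06). The CD rats were spread from 25.3 to 58.8% over both stages. The nearest CpG, 9 bases away at 16400207, had 94.9 ± 3.15% and 93.5 ± 0.841% in BN. The call was lost without BN-NP rat 3 (adjusted p = 0.409) and with limma on percents (adjusted p = 0.780). At an unadjusted p under 0.05 there were 160 high-coverage CpGs in CD (6.63%, against 3.35% of all tested) and 108 in BN (4.48%, against 3.52%).

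No high-coverage CpG passed the test of the interaction, that is, of a change with pregnancy that differs between the strains (moderated logistic model, adjusted p under 0.05). Over all tested CpGs 21 did, or 0.0052% (0.00346% with a more positive change in BN and 0.00173% with a more negative one). Of the high-coverage CpGs, 120 had an unadjusted p under 0.05 (4.97%, against 3.83% of all tested). Limma on percents also called 0 of the high-coverage CpGs, and 130 over all tested CpGs.

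None of the 122 loci differed between P18 and NP at an adjusted p under 0.05 by the exact permutation test within strain, while 9 had an unadjusted p under 0.05 and the smallest adjusted p was 0.349. The smallest p of this test is 0.005, so 1 locus alone could not go below an adjusted p of 0.61, and 13 loci at that p would be needed to pass. The median size of the difference was 0.846 points, against 1.99 points between the strains. At chr1:16400139-16400207, which contains the BN pregnancy DMC, the mean level of 6 CpGs was 83.8 ± 1.59% in CD-NP and 80.4 ± 4.49% in CD-P18, and in BN rats 85.1 ± 1.0% at NP and 75.6 ± 1.98% at P18. At chr1:11910023-11912274 the stages differed by 1.62 points, within the spread of the rats.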

How the data were processed

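RRBS libraries of 12 rat kidneys were analysed; the RNA-seq counts of the series were not used. Groups and replicate numbers came from the labels. The authors' read processing, per the study's methods and processing notes, was trimming with Trim Galore 0.4.5 and NuGEN scripts, removal of duplicates by random tags, alignment with Bismark (default parameters) on Rnor6.0, and call lists for methylKit 1.16.1. Each line of the deposited lists holds 1 strand of a CpG, its coverage (a count of reads) and its percent methylated and unmethylated. The lowest deposited coverage was 5 reads. Coverage times percent gave whole reads within 0.006 points for 100% of CpGs, and these reads were tested. Counting errors of a level cover the sampling of reads only.

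Python 3.11.15, numpy 2.4.6, scipy 1.17.1, R 4.3.3 and limma 3.58.1 were used. The logistic model was fitted to the 6 rats of each comparison (12 for the interaction) over 404069 CpGs. Its Pearson dispersion was moderated with squeezeVar, with a trend over log coverage the prior set by CpGs of 10 to 90% and 1 as the floor. Elsewhere the prior was used, or a CpG's own dispersion if larger. An F test with Benjamini-Hochberg adjustment gave the p. Loci of at least 5 CpGs were tested by permuting strain within stage, or stage within strain (400 arrangements). Scripts were tested on simulated data.

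Named were the 10 largest loci, the 10 deepest CpGs, up to 5 DMCs with the smallest p per comparison (1 per locus), their nearest tested CpG and the CpGs next to the coverage threshold. Other loci (coverage gaps, spacing matches, strand pairs, loci over 10 points, the chromosome 14 locus as a whole and chr1:16400139-16400207) were chosen after their values were seen. The CpGs, rule and tests were chosen with earlier results of these data known. Replicate numbers did not pair the rats: correlations of the deviations of same-numbered rats ran from -0.497 to 0.436. Sequences of Rnor6.0 were not used here.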

Additional observations from a re-analysis of the deposited data

How the results depend on the processing

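The strain counts depended on the model of the spread between rats. Without overdispersion, 298 high-coverage CpGs were DMCs at NP, 320 at P18, 58 with pregnancy in CD and 6 in BN, and 44 passed for the interaction. With each CpG's own dispersion 0 passed in all 4 comparisons (309, 374, 65 and 26 at an unadjusted p under 0.05). With the prior from the high-coverage CpGs alone the counts were 114, 16, 0 and 0, and with limma on percents 2, 8, 0 and 0. Over all tested CpGs limma called 542, 490, 5 and 2. Over 25 points, 117 and 119 strain DMCs were left. With a replicate block the counts were 24, 6, 0 and 1, although the numbers do not pair the rats. With at least 20 reads in all rats, the pregnancy count in CD was 0, with a mean coverage of at least 50 it was 2, and with at least 100 it was 0 in CD and 0 in BN. Leaving out each rat in turn gave counts of 139 to 213 at NP, 126 to 178 at P18, 1 to 4 with pregnancy in CD, 0 to 3 in BN and 0 to 2 for the interaction. The loci that differed between strains were 13 to 37 of 122, with 13 without BN-NP rat 1 and 16 without BN-P18 rat 2. All runs without 1 rat had 200 arrangements, and without any other single rat the count was 25 to 37. The other alternatives kept the locus counts within 28 to 44 for strain and at 0 for pregnancy. The CpGs named for a difference kept their direction under every alternative, which is no check of them. They were chosen by their smallest p, and alternatives of the dispersion, prior or block keep the same pooled difference.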
